A study of Mus musculus with 154 samples.

Results

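Chromosome substitution strains carry 1 chromosome of the A/J strain on the background of C57BL/6J (B6), so that a genetic difference from B6 lies on that chromosome. Differences of library preparation between strains cannot be told apart from such genetic effects here. The data described here concern liver in which chromosomes 8 and 14 of A/J were combined. They comprised 5 mice of the double strain (B6.A8 X B6.A14)F1, 8 mice of each single strain, (B6.A8 X B6)F1 and (B6 X B6.A14)F1, and 20 mice of B6, which together were 41 of the 154 mice in the series. The members were chosen by strain label alone, and strain names list the sire first. All mice were males aged 5 weeks that had been fasted overnight. F1 mice were heterozygous for the A/J-derived chromosome or chromosomes and B6 elsewhere, so recessive effects could not be seen, and an effect belonged to a whole chromosome with its many variants. RNA came from bulk liver, in which fewer cells of a type and less RNA per cell cannot be told apart.

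In a cross of this kind, the effects of both chromosomes are called additive on the log2 scale when the double strain differs from B6 by the sum of both single strain differences. Any departure from that sum is the interaction, or epistasis. The liver is a suitable tissue for such a comparison, as hepatocytes make most plasma proteins, run gluconeogenesis, ketogenesis and the urea cycle during fasting, and clear foreign compounds through oxidation, hydrolysis and conjugation. Many of these genes share transcription factors, so that a variant on 1 chromosome can reach genes on others (trans effects), whereas a regulatory variant within a gene acts on that gene's own copy (cis effects).

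Double strain libraries held 5801628 to 29202993 counted reads (median 16021742), a range that took in all single strain and B6 libraries. Levels are given below as CPM, in which counts are scaled to a common library size, after TMM normalization, and differences as log2 fold changes (± standard error) from edgeR's quasi-likelihood model over all 154 mice and 13289 genes, with 5 surrogate variables for hidden variation. A gene was called when its Benjamini-Hochberg adjusted p-value (FDR) was below 0.05, adjusted separately for the 1121 genes on chromosomes 8 and 14 and for all other genes. The double strain, both single strains and B6 enter several of these comparisons together, so calls in them are not independent. All 10 hepatocyte markers were measured, and their summed level was 108700 to 135400 CPM in the double strain, 59960 to 120700 with chromosome 8, 65100 to 136900 with chromosome 14 and 109600 to 168800 in B6, so that it moved with the strains. Its part in the results below was not tested. The summed levels of Kupffer cell, endothelial, stellate and cholangiocyte markers did not exceed 804.9 CPM in any mouse, and 0 of the 8 T and NK cell markers were in the table.

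The interaction of both chromosomes reached genes throughout the genome. Of 13289 genes, 4365 (32.8%) had an interaction at an FDR below 0.05, and 2439 of these (18.4% of all genes) were higher and 1926 (14.5%) lower in the double strain than the sum of the single strain effects. The absolute log2 interaction of the called genes had a median of 0.49. In contrast, the double strain itself differed from B6 at 640 genes (4.82%), of which 347 were higher and 293 lower. Substitution of chromosome 8 alone changed 4024 genes (30.3%) and substitution of chromosome 14 alone 3075 genes (23.1%). Thus each single strain differed from B6 at several times as many genes as the double strain did. However, the group of 5 double strain mice was smaller than that of 8 single strain mice, and the count for the double strain against B6 depended on single mice, with 332, 246 and 287 genes when double strain mouse 1, 2 or 3 was left out. The gap was also narrower with 10 surrogate variables, which gave 1464 interactions, 583 genes for the double strain, 1180 for chromosome 8 and 788 for chromosome 14.

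The measured effect of each chromosome differed between backgrounds. The chromosome 8 effect was measured on the B6 background, (B6.A8 X B6)F1 against B6, and on the chromosome 14 background, (B6.A8 X B6.A14)F1 against (B6 X B6.A14)F1, which have no mouse in common. Substitution of chromosome 8 altered 2023 genes (15.2%) on the chromosome 14 background. There were 1287 genes called on both backgrounds, or 31.98% of those called on B6 and 63.6% of those called on the other. Among these, 1235 changed in opposite directions and 52 in the same direction. For chromosome 14, which changed 2806 genes (21.1%) on the chromosome 8 background, 1420 genes were called on both, of which 1400 had opposite signs and 20 the same sign. Across all genes, the effects on both backgrounds had a Pearson correlation of -0.38 for chromosome 8 and -0.39 for chromosome 14. These are descriptions over 13289 genes, which are not independent, and the effects compared share the fit and its surrogate variables. The part of a shift common to both single strains in these signs and correlations was not tested.

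Effects in the same direction lay in large part on the substituted chromosome itself. Among the 52 genes that chromosome 8 changed in the same direction on both backgrounds, 27 lie on chromosome 8, where 99 genes were called on both and the other 72 had opposite signs. For chromosome 14, 16 of the 20 genes with the same sign lie on chromosome 14. The Pearson correlation of the effects of chromosome 8 on both backgrounds was 0.12 over the genes on chromosome 8 and -0.42 over all others. By ranks (Spearman), these were -0.20 and -0.45, so the positive sign depended on the measure. For chromosome 14, the Pearson correlation was -0.08 over its own genes and -0.40 over all others (Spearman -0.30 and -0.54).

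**Figure D1:**
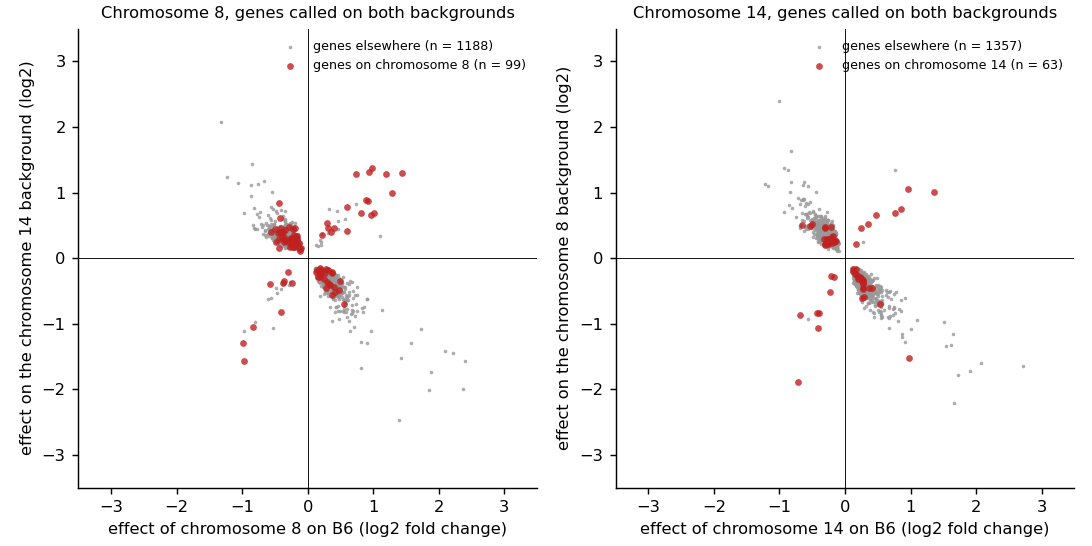
Each point is a gene called on both backgrounds, with the log2 fold change from the A/J-derived chromosome on B6 on the x axis and that on the background of the other A/J-derived chromosome on the y axis, and red points are genes on the substituted chromosome. Grey points lie almost entirely in the quadrants of opposite sign, while 27 of 99 red points for chromosome 8 and 16 of 63 for chromosome 14 lie in those of equal sign (1 gene, Rprl3, lies outside the axes of the right panel).

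The same contrast was seen by position. The share of genes called for the interaction was 31.0% on chromosome 8 and 37.7% on chromosome 14, within the range of 28.3% to 39.2% over the autosomes and X. For the double strain against B6, by comparison, 97 genes on chromosome 8 (14.04%) and 58 on chromosome 14 (13.5%) were called, against 3.99% elsewhere. By these calls, double strain differences from B6 were more frequent on the substituted chromosomes, and interactions were not. However, for the double strain against B6 the separate FDR adjustment set a looser p-value cutoff on chromosomes 8 and 14 than elsewhere. By edgeR's test, Sugt1 on chromosome 14 had an FDR of 0.0573 at p = 0.00864, and Ccnc on chromosome 4 one of 0.081 at p = 0.00498. The part of this cutoff in the gap was not tested. In the alternative fits with the same adjustment, and with each double strain mouse left out, calls against B6 made up 9.26% to 14.6% on chromosome 8, 7.44% to 14.9% on chromosome 14 and 0.937% to 4.46% elsewhere.

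**Figure D2:**
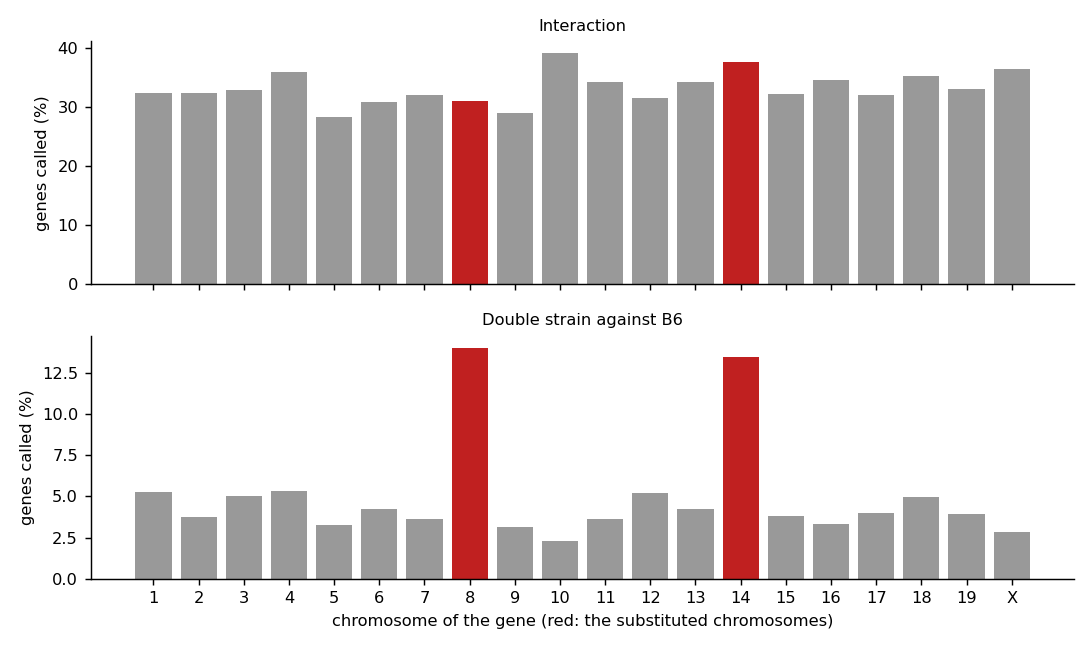
Bars give the percentage of measured genes on each chromosome (x axis) called at an FDR below 0.05 for the interaction (top) and for the double strain against B6 (bottom), with both substituted chromosomes in red. Interactions were called at 28.3% to 39.2% of genes on every chromosome shown, while calls against B6 reached 14.04% and 13.5% on chromosomes 8 and 14. The FDR was adjusted separately for these chromosomes, with a looser p-value cutoff there for calls against B6.

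The genes with the strongest interactions shared a common pattern, in which either chromosome alone moved expression and most mice with both lay in the range of B6. Serpinf1, which encodes the secreted inhibitor of angiogenesis PEDF, had 484, 446, 482, 453 and 455 CPM in the 5 double strain mice. B6 mice had 402 to 570 CPM (median 475), whereas the values were 226 to 388 (median 300.2) with chromosome 8 and 276.7 to 424.5 (median 357) with chromosome 14. All double strain mice thus lay above all mice of both single strains and within the range of B6. Chromosome 8 alone lowered Serpinf1 by a log2 fold change of -0.52 and chromosome 14 alone by -0.33, yet the double strain differed from B6 by 0.03 ± 0.06, giving an interaction of 0.89 ± 0.09 (FDR = 1.04e-13). Fah, which encodes the last enzyme of tyrosine breakdown, had 417 to 454 CPM in the double strain, 391 to 479 in B6, 232.4 to 385 with chromosome 8 and 231 to 447.9 with chromosome 14 (interaction 0.86 ± 0.09).

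The other positive interactions with the lowest p-values came from several cell functions. Tfr2, an iron sensor of hepatocytes (interaction 1.03), Uba1, the major ubiquitin-activating enzyme (0.86), Ddb1, a ubiquitin ligase adaptor (0.90), and Lrpprc, which stabilises mitochondrial mRNAs (0.87), were each lower in both single strains and differed from B6 by at most 0.05 log2 units in the double strain. Atp5a1, the alpha subunit of ATP synthase (0.81), and Got2, the mitochondrial aspartate aminotransferase (0.96), behaved likewise. By edgeR's test, 0 of these 8 genes differed from B6 in the double strain, also at an unadjusted p-value below 0.05.

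Negative interactions showed the mirror image. Lactb2, a mitochondrial ribonuclease, had 169, 170, 192, 204 and 203 CPM in the double strain and 160 to 235 in B6, but 230 to 294 with chromosome 8 and 228 to 288 with chromosome 14. The double strain therefore overlapped with B6 and with neither single strain, and its interaction was -0.77 ± 0.09 (FDR = 4.73e-12). Cops2, a subunit of the COP9 signalosome, was raised by 0.47 with chromosome 8 and by 0.40 with chromosome 14, and differed from B6 by -0.13 ± 0.07 in the double strain (interaction -1.003 ± 0.11). Similar values were seen for Ccnc, cyclin C of the Mediator kinase module (-1.05), Tmx3, a disulphide isomerase of the endoplasmic reticulum (-1.06), Cfhr2, a complement factor H-related protein (-1.06), Zfp729b, a zinc finger gene (-1.25), Nbeal1 (-0.78) and Sh3bgrl (-0.95). By edgeR's test, 0 of these 8 genes were called in the double strain against B6, although Ccnc and Cfhr2 had unadjusted p-values of 0.00498 and 0.0187. Double strain mice were not all within the range of B6, as 2 of 5 lay below it for Cfhr2 and 1 of 5 for each of Tmx3, Zfp729b and Nbeal1, while 1 of 5 lay above it for Ddb1. Zfp729b, as a member of a family of near-identical zinc finger genes, may share reads with its copies.

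**Figure D3:**
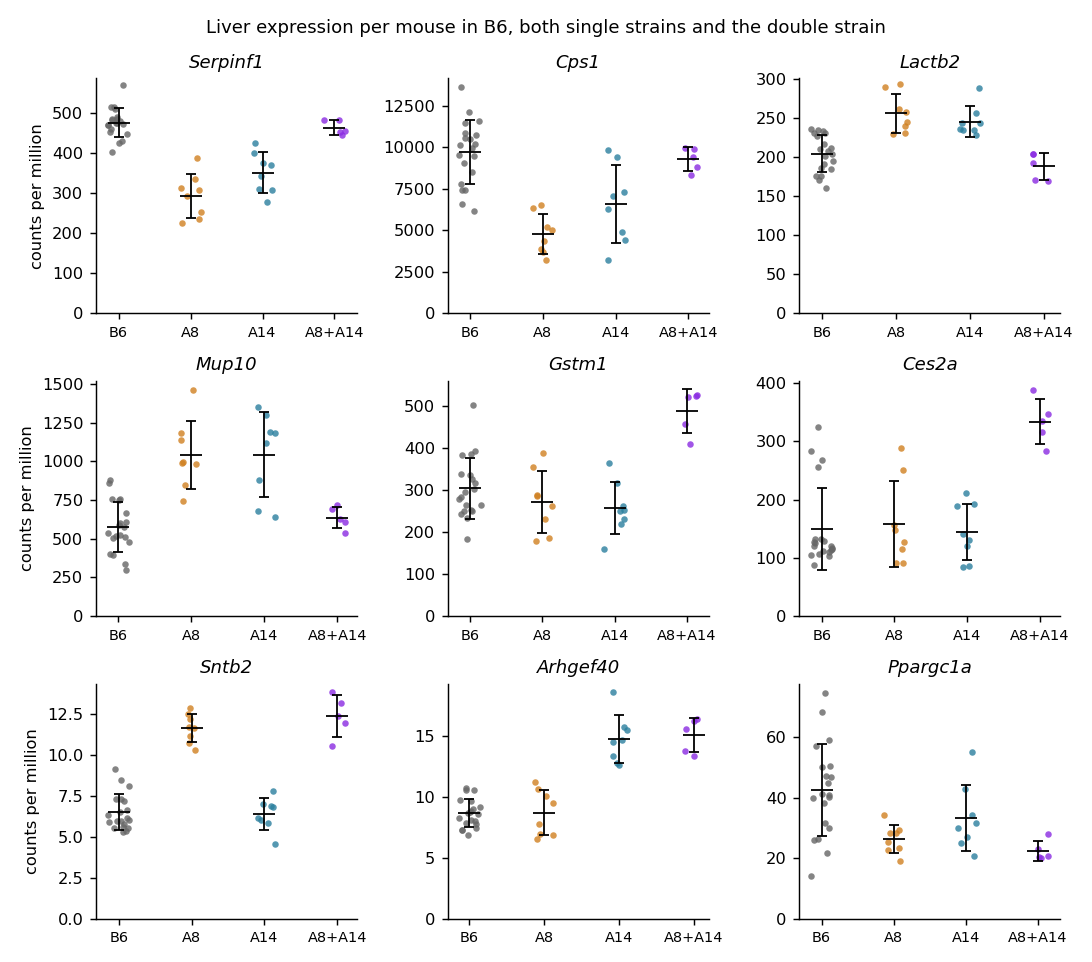
Each point is the level of 1 gene in 1 mouse in CPM (y axis), for B6, the strains with chromosome 8 (A8), chromosome 14 (A14) or both (A8+A14), with bars for the mean and SD. Serpinf1, Cps1, Lactb2 and Mup10 return to the range of B6 when both chromosomes are combined, Gstm1 and Ces2a have their highest means in the double strain, Sntb2 and Arhgef40 follow their own chromosome, and Ppargc1a is lowest on average in the double strain.

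The pattern extended along the base composition of genes. Genes with a higher interaction had a median GC content of 51.0% in their longest transcript, those with a lower one 42.9% and uncalled genes 49.1%. In each mouse, the slope of log2 CPM (as a deviation from the mean of all mice) on GC content was computed over 5533 protein-coding genes. The mean slope, in log2 units per 10 percentage points of GC, was -0.20 ± 0.05 (SD, n = 8) with chromosome 8, -0.10 ± 0.07 (n = 8) with chromosome 14, 0.06 ± 0.04 (n = 5) in the double strain and 0.02 ± 0.06 (n = 20) in B6. All 5 double strain mice had higher slopes than all 16 single strain mice. The slope differed from B6 in both single strains (exact permutation tests, two-sided, BH-adjusted over 10 tests: p = 6.43e-06 and p = 0.000774), and no difference was detected between the double strain and B6 (p = 0.264). The mitochondrial 16S rRNA gene mt-Rnr2, an abundant RNA in total RNA libraries, moved with the strains in the same way, with 37670 to 62140 CPM in the double strain, 58940 to 141400 with chromosome 8, 65500 to 116400 with chromosome 14 and 38610 to 87570 in B6. Library preparation and strain cannot be told apart here, since the sources used here do not tie libraries to batches.

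The interaction count was therefore also computed with offsets for GC content and length in each mouse. With them, 3261 genes had an interaction, and 1533 and 1559 genes changed with chromosome 8 and chromosome 14 on the background of the other. The double strain then differed from B6 at 673 genes. With these offsets, 669 of 722 genes called for chromosome 8 on both backgrounds had opposite signs, as did 796 of 817 for chromosome 14. The offsets cover GC content and length only, and other differences of library preparation were not tested. Many interactions were smaller with the offsets, at genes of low GC content, for example -0.34 in place of -0.95 for Sh3bgrl and -0.33 in place of -1.06 for Cfhr2, and at genes of high GC content, with 0.36 in place of 1.05 for Slc37a4 and 0.77 in place of 1.27 for Pcx. The interaction of Serpinf1 was 0.80 in place of 0.89, and that of F5 was 1.09 in both fits.

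**Figure D4:**
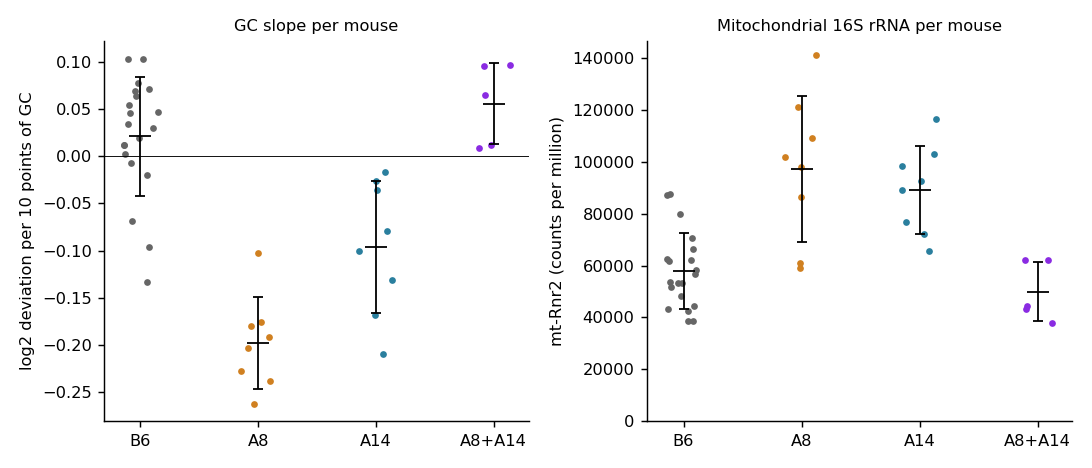
Each point is a mouse of B6 or of the strains with chromosome 8 (A8), chromosome 14 (A14) or both (A8+A14), with bars for the mean and SD. The left panel gives the slope of log2 CPM on GC content and the right panel the level of mt-Rnr2 in CPM, and in both the double strain lies with B6, apart from most single strain mice.

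Glucose and fuel metabolism genes took part in the interaction in 1 direction. Among 15 gluconeogenesis genes, 10 had a higher interaction and none a lower one (against 18.4% higher and 14.5% lower over all genes), with a median of 0.71, whereas the median over all genes was 0.02. Calls also varied with expression level. Of 840 genes with an average log2 CPM over 7, 358 were higher and 152 lower, and of 2029 genes under 1, 80 and 127. The part of expression level in the counts of this and the following lists was not tested. Chromosome 8 alone lowered 13 of these genes (against 17% lowered over all genes) and chromosome 14 alone 12 (against 12.9%), but the double strain lowered 2, Ppargc1a and Tat. Pcx, pyruvate carboxylase, which feeds oxaloacetate into gluconeogenesis, had 456 ± 73.3 CPM (SD, n = 5) in the double strain and 502 ± 86.4 (n = 20) in B6, against 245 ± 38.6 (n = 8) with chromosome 8 and 331 ± 128 (n = 8) with chromosome 14. Its interaction was 1.27 ± 0.17 (FDR = 8.47e-10). Fbp1, fructose-1,6-bisphosphatase (0.89), Mdh2, mitochondrial malate dehydrogenase (0.73), and Slc37a4, the glucose-6-phosphate transporter (1.05), had interactions of the same sign. Of 18 glycolysis and glycogen genes, 13 were higher and none lower (median 0.60), including Eno1, Gpi1 and Gapdh. Unlike gluconeogenesis genes, 2 of them, Pklr and Pygl, were raised in the double strain against B6.

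Genes of fat and amino acid metabolism behaved alike. For fatty acid oxidation and ketogenesis, 15 of 25 genes had a higher interaction and 1 a lower one (against 18.4% higher and 14.5% lower over all genes), with Cpt1a, which admits fatty acids into mitochondria, at 1.07 ± 0.17. Fatty acid synthesis had 7 of 14 higher, with Acaca, Acly, Fads1 and Fads2 among them. With 10 surrogate variables, the interactions of Cpt1a (0.35, FDR = 0.107), Fads1 (0.38, FDR = 0.11) and Fads2 (0.27, FDR = 0.432) were no longer called. Of 34 genes of amino acid catabolism and the urea cycle, 23 were higher and 2 lower. Cps1, carbamoyl phosphate synthetase of the urea cycle, was at 9968, 9891, 9416, 8796 and 8303 CPM in the double strain, 3218 to 6516 with chromosome 8, 3185 to 9845 with chromosome 14 and 6138 to 13630 in B6. No double strain mouse overlapped with chromosome 8, although they did with chromosome 14, and the interaction was 1.34 ± 0.16. With GC content and length offsets, interactions were called for 5 of 15 gluconeogenesis, 14 of 18 glycolysis, 11 of 25 fat oxidation and 12 of 34 amino acid genes (11 of the latter higher). Over all 13289 genes, 3261 were called with these offsets.

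Secreted proteins showed further interactions of positive sign. Of 30 coagulation and complement genes, 19 were higher and 5 lower, against 18.4% higher and 14.5% lower over all genes. With the offsets, 21 were higher and 2 lower, while 1655 of all 13289 genes were higher. Coagulation factor V, F5, had 523 to 626 CPM in the double strain, 256 to 498 with chromosome 8 and 278 to 494 with chromosome 14, and the double strain overlapped only with B6 (471 to 828.8). F2, prothrombin (0.70), F12 (0.72) and antithrombin, Serpinc1 (0.64), had smaller interactions. Agt, angiotensinogen, lies on chromosome 8 (124556534 to 124569706, GRCm38). It was lower with chromosome 8, at 184 to 319 CPM, than in B6, at 382 to 590, with no overlap, and intermediate in the double strain, at 392.3, 392.9, 375.3, 361.7 and 369.3. The log2 effect of chromosome 8 on Agt was -0.86 on B6 but 0.13 (FDR = 0.405) on the chromosome 14 background, and the double strain remained below B6 by -0.32 ± 0.09.

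Sex-biased genes, which depend on the pulsatile release of growth hormone in rodents, had the largest median interactions among the lists with more than 1 measured gene. All 18 major urinary protein genes, which carry pheromones in urine, had a negative interaction, with a median of -2.91. Over all genes, 14.5% had a lower interaction and 18.4% a higher one. Mup10 had 539.1, 692.1, 717.4, 626.5 and 608.1 CPM in the double strain, 743 to 1460 with chromosome 8, 643 to 1353 with chromosome 14 and 297.3 to 877.7 in B6. The double strain lay below chromosome 8 and overlapped with the others, with an interaction of -1.53 ± 0.24. Mup genes are near-identical copies, so the assignment of reads among them is uncertain. In the list of 15 male-biased genes, which also holds Mup20 and Mup21, 9 were lower and none higher, among them Elovl3, a fatty acid elongase (-3.63 ± 0.66), and Slco1a1, an organic anion transporter (-2.07 ± 0.32). Elovl3 overlapped between strains, with 15.5 to 58.55 CPM in the double strain, 44.7 to 171.6 with chromosome 8, 32.04 to 243.2 with chromosome 14 and 8.34 to 178.9 in B6. Its interaction was -2.58 with GC content and length offsets and -2.20 with 10 surrogate variables. Female-biased genes went the other way, with 9 of 14 higher and none lower, such as Abcd2, a peroxisomal transporter (1.99 ± 0.38), and Fmo2, a flavin-containing monooxygenase (1.43 ± 0.34, but 0.69 and not called with 10 surrogate variables, FDR = 0.227). With GC content and length offsets, 15 of 18 Mup genes and 2 of 15 male-biased genes were lower, and 8 of 14 female-biased genes higher. Over all 13289 genes, 3261 were called with these offsets, of which 1655 were higher. The male-biased count was then near the share over all genes.

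**Figure D5:**
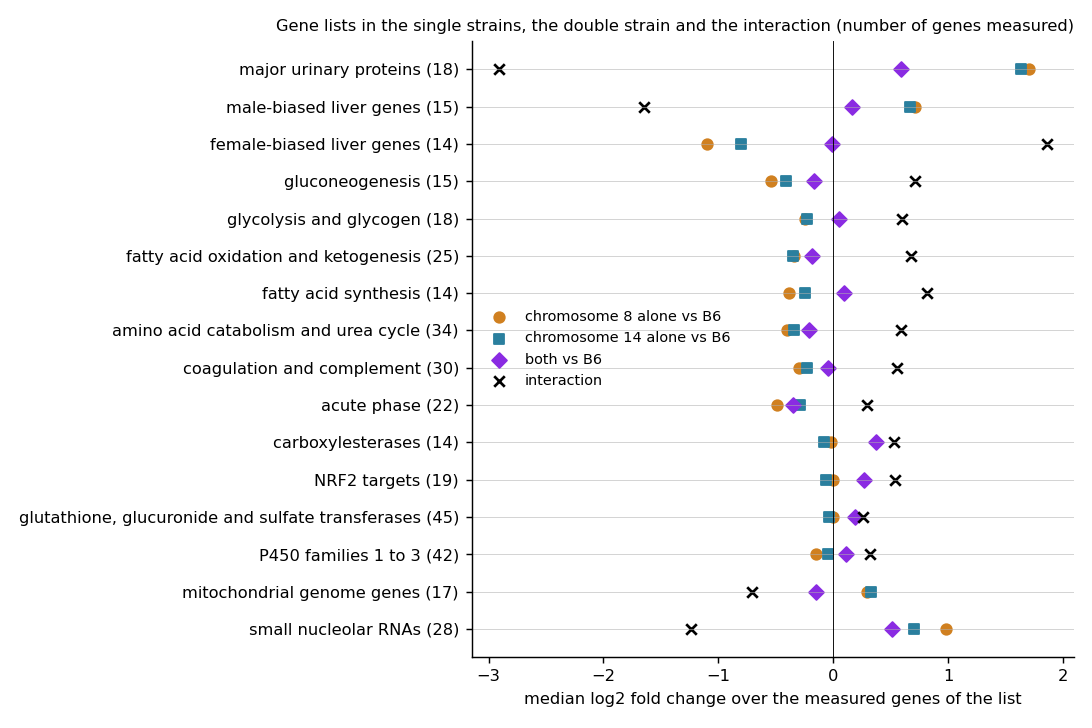
Points give the median log2 fold change over the measured genes of each list (x axis, number of genes in parentheses) for chromosome 8 alone, chromosome 14 alone and both against B6, and for the interaction. Single strain medians lie on 1 side of 0 and the interaction on the other for Mup, sex-biased, fuel metabolism and secreted protein genes, while carboxylesterases (0.38) and NRF2 targets (0.27) are above 0 mainly in the double strain.

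Other genes were altered in the double strain with no detected effect of either chromosome alone, and those with the lowest p-values included 4 enzymes of foreign compound metabolism. These were Ces2a, a carboxylesterase that hydrolyses esters, Gstm1, a glutathione transferase, Ephx1, the microsomal epoxide hydrolase, and Adh1, alcohol dehydrogenase. Their RefSeq promoters (GRCm38.p6; 250 bases before to 50 after the start of transcription, 5' to 3' on the strand of the gene) are shown because the 4 genes changed together, for Ces2a at chr8:104733753-104734052 (+), Gstm1 at chr3:108017924-108018223 (-), Ephx1 at chr1:181017520-181017819 (-) and Adh1 at chr3:138277335-138277634 (+). Capitals mark AGGTCA, a half-site bound by many nuclear receptors, on either strand.
Ces2a: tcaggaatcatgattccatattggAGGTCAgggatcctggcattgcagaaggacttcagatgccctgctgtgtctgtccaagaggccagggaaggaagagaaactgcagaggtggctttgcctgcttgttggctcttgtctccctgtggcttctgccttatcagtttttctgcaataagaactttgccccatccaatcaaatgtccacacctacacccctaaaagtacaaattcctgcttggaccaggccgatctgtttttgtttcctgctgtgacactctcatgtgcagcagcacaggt
Gstm1: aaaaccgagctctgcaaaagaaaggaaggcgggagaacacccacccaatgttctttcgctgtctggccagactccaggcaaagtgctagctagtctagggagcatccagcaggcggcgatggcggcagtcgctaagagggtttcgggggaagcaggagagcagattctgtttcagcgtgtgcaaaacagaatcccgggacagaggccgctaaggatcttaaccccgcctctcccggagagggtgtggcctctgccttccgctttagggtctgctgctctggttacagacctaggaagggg
Ephx1: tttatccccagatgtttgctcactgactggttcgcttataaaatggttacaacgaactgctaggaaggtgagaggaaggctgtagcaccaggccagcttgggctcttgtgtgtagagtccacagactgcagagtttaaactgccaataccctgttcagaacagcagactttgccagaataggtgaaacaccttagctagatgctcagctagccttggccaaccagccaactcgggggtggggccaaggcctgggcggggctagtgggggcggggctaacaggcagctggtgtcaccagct
Adh1: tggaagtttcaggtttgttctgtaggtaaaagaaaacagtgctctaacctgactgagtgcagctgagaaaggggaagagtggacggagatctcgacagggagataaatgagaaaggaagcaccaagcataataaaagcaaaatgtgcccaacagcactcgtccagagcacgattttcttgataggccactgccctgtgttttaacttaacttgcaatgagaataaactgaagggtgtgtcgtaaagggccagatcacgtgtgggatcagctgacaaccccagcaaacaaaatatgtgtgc

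AGGTCA occurred in these windows only in Ces2a, 226 bases before the start, and 16.3% of 32851 promoters of this length hold it. The antioxidant element TGACNNNGC, bound by NRF2, was found in none of the 4 windows and in 12.4% of all promoters. Gstm1 has 2 promoter entries, and the one nearest to its GENCODE start is shown.

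Gstm1 had 525.9, 521.9, 522.6, 409.8 and 456.4 CPM in the double strain. Values were 183 to 502 (median 290) in B6, 179 to 388 (median 274) with chromosome 8 and 160 to 365 with chromosome 14. The double strain exceeded every single strain mouse, with overlap only with B6. Gstm1 was raised by 0.82 ± 0.14 against B6 (FDR = 9.54e-05), and its interaction was 0.85 ± 0.23 (FDR = 0.00176). Ces2a had 347.1, 316.9, 387.7, 283.2 and 334.2 CPM, overlapping with the upper part of 87.9 to 325 (median 121) in B6, with a rise of 1.43 ± 0.23 (FDR = 4.27e-07). Its interaction of 0.80 ± 0.37 was not called (FDR = 0.087), although it was called without surrogate variables (1.12, FDR = 0.0124) and with GC content and length offsets (1.09, FDR = 0.023). Adh1 had 807, 889, 979.9, 815 and 838 CPM, above all 20 B6 mice (428 to 795), and was raised by 0.64 ± 0.11. Ephx1 was raised by 0.59 ± 0.11, and both had interactions (0.83 ± 0.17 and 0.71 ± 0.17). With 10 surrogate variables, the interactions of Gstm1 (0.52, FDR = 0.141), Adh1 (0.50, FDR = 0.0725) and Ephx1 (0.51, FDR = 0.0644) were no longer called.

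Outside this group, Sort1, the sorting receptor for lipoproteins, had 21.9, 24.9, 22.2, 23.9 and 23.2 CPM in the double strain, above all mice of B6 (12.1 to 20.2), of chromosome 8 (13.8 to 19.2) and of chromosome 14 (11.4 to 15.8). It rose by 0.70 ± 0.11 against B6 (FDR = 9.53e-06). Stat5a, a signal transducer of the growth hormone receptor, rose by 0.50 ± 0.11 (FDR = 0.00278), with 9.79 to 12.6 CPM in the double strain, overlapping with 5.12 to 10.8 in B6 and above 5.94 to 8.83 with chromosome 14. Pik3c2a, a phosphoinositide kinase of endocytosis, was lower by -0.50 ± 0.09 (FDR = 0.00012), with 98.7 to 119 CPM against 108 to 216 in B6 and 139 to 200.2 with chromosome 8. Slc6a12, the betaine transporter, by contrast belonged to the genes restored in the double strain (82.1 to 99.5 CPM, B6 68.5 to 114, interaction 1.22 ± 0.15). Pcx, Agt, Gstm1, Stat5a, Pik3c2a and Slc6a12 are genes the study itself examined for this cross, so their direction is not independent evidence.

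Lists of foreign compound metabolism were in part raised in the double strain. All 14 measured carboxylesterases lie on chromosome 8, and 6 were higher than in B6 and none lower, against 2.61% higher over all genes and 60 genes on chromosome 8. The 6 were Ces1b (1.08), Ces1d (0.58), Ces1e (0.34), Ces1f (0.57), Ces2a and Ces2e (0.58), named here after their values were seen. Ces1b at chromosome 8, 93056728 to 93080017, had 135 to 174 CPM in the double strain, 82.5 to 142 with chromosome 8, 42.1 to 82.2 with chromosome 14 and 52.6 to 104 in B6. Chromosome 8 raised it by 0.74 on B6 and by 1.29 on the chromosome 14 background, and the difference was called (interaction 0.55 ± 0.17, FDR = 0.00748). The copies of these genes are alike in sequence, so reads may be shared. Among 19 NRF2 targets, which respond to electrophiles, 6 were higher and 1, Hmox1 (-0.65), lower. Of 45 glutathione, glucuronide and sulfate transferases, 9 were higher and 2 lower, with Gstm3, chosen after its values were seen, at 1.36. Of 42 P450 genes of families 1 to 3, 4 were higher, and Cyp3a11, a major drug-oxidising enzyme chosen after its values were seen, had 7227 to 10170 CPM in the double strain and 894 to 9330 (median 1466) in B6. Its difference of 2.17 ± 0.46 was called (FDR = 0.00185), its interaction was not (-0.13 ± 0.79, FDR = 0.927), and its values in B6 and in both single strains spanned a wide range.

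Genes on chromosomes 8 and 14 with lasting effects of their own chromosome were found as well. Sntb2 (beta-2 syntrophin, chromosome 8, 106935750 to 107019714) had 13.2, 13.9, 10.5, 11.98 and 12.4 CPM in the double strain and 10.3 to 12.9 with chromosome 8, against 5.27 to 9.15 in B6 and 4.55 to 7.81 with chromosome 14. Mice with and without the A/J-derived chromosome 8 did not overlap. Chromosome 8 raised Sntb2 by 0.90 on B6 and by 0.88 on the chromosome 14 background, and the interaction was -0.01 ± 0.13 (FDR = 0.95). Arhgef10 (a guanine nucleotide exchange factor, chromosome 8, 14911663 to 15001085) was raised by 1.20 and 1.28, with 8.41 to 10.7 CPM in the double strain and 2.22 to 4.59 in B6. On chromosome 14, Arhgef40 (51984719 to 52006251), another exchange factor, had 13.4 to 16.4 CPM in the double strain and 12.7 to 18.7 with chromosome 14, but 6.90 to 10.8 in B6 and 6.60 to 11.3 with chromosome 8. Its effects of 0.85 on B6 and 0.75 with chromosome 8 did not differ detectably (interaction -0.10 ± 0.15).

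By contrast, other genes on these chromosomes had a clear effect of their own chromosome on B6 and a different one on the background of the other chromosome. Spcs3, a signal peptidase subunit on chromosome 8, changed by 0.58 on B6 and by -0.02 (FDR = 0.926) on the chromosome 14 background (interaction -0.59 ± 0.09). On chromosome 14, Socs4, a suppressor of cytokine signalling, changed by 0.53 on B6 and by 0.16 (FDR = 0.157) with chromosome 8, with an interaction of -0.37 ± 0.11, and 1700123O20Rik by 0.47 and -0.04 (interaction -0.51 ± 0.12). The double strain still differed from B6 at Socs4 (0.38, FDR = 2.06e-05), Spcs3 (0.20, FDR = 0.0171) and 1700123O20Rik (0.22, FDR = 0.0331). The interactions of Spcs3 (-0.22, FDR = 0.0541) and Socs4 (-0.13, FDR = 0.327) were not called with GC content and length offsets, nor were those of Socs4 (-0.31, FDR = 0.0673) and 1700123O20Rik (-0.24, FDR = 0.193) with 10 surrogate variables. Itih1, a hyaluronan-binding plasma protein encoded on chromosome 14, went from -0.51 to 0.52. It had 611 to 706 CPM in the double strain, 362 to 581 with chromosome 14, 311 to 589 with chromosome 8 and 607.8 to 776.8 in B6, so that neither single strain overlapped with the double strain. Among the lowest p-values for an interaction on chromosome 8 were Glg1 of the Golgi (0.84), the lysyl-tRNA synthetase Kars (0.54) and Clec4g, a lectin of sinusoidal endothelium (-1.25), and on chromosome 14 Sugt1 (-0.73), the proteasome subunit Psmc6 (-0.87) and Rbm26 (-0.61).

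Rprl3, an RNase P RNA gene annotated on chromosome 8, followed chromosome 14 instead and was singled out after its values were seen. It had 118, 53.8, 86.6, 55.9 and 62.2 CPM in the double strain and 47.42 to 130.8 with chromosome 14, while no mouse of B6 or chromosome 8 exceeded 0.461. It is nearly identical to Rpph1 on chromosome 14, so the assignment of its reads between both genes is uncertain.

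Some genes were called in both single strains and the double strain in 1 direction. Ppargc1a, the coactivator PGC-1 alpha of fasting metabolism, had 27.9, 19.9, 20.7, 20.3 and 23.1 CPM in the double strain, 14.1 to 74.4 (median 41.2) in B6, 19.2 to 34.3 with chromosome 8 and 20.8 to 55.03 with chromosome 14. The values of all strains overlapped. Ppargc1a fell by 1.07 on the log2 scale in the double strain (FDR = 0.00239), by 0.84 with chromosome 8 and by 0.55 with chromosome 14, and its interaction was 0.32 ± 0.33 (FDR = 0.494). Hp, the haemoglobin scavenger haptoglobin on chromosome 8, differed from B6 by -0.55 ± 0.13, -0.56 and -0.29 in the same order. Rab6a, a Golgi GTPase (-0.36), and the mitochondrial folate transporter Slc25a32 (-0.62) were lower, and the scavenger receptor Colec12 (0.35) was higher in the double strain. For these 5, an interaction was not detected at this number of mice, which does not show that effects were additive, and with 10 surrogate variables that of Hp was called (0.58, FDR = 0.0391). These genes were chosen for calls in all 3 strains with an interaction p-value above 0.1.

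In the double strain, 9 of 34 amino acid and urea cycle genes were lower than in B6 and none higher, against 2.20% lower over all genes. Cth, cystathionine gamma-lyase (-0.77 ± 0.14), and Tat, tyrosine aminotransferase (-0.71 ± 0.22), were among them and were chosen after their values were seen. In the acute phase list, 5 of 22 genes were lower, namely Hp, Lcn2, Apcs, Itih3 and Stat3, and none was higher. Lcn2, a siderophore-binding protein of neutrophils and inflamed liver, was also chosen after its values were seen. It had 3.52 to 10.7 CPM in the double strain and 3.76 to 187.6 (median 8.96) in B6. The difference of -2.18 ± 0.61 thus came with overlap and a wide spread in B6. The summed level of both measured neutrophil markers was 0.956 to 2.48 CPM in the double strain and 0.563 to 14.3 in B6, and its part in the result was not tested.

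Called interactions of small nucleolar RNAs and of mitochondrial genome genes were negative before offsets for GC content and length. Of 61 genes annotated as snoRNA, 27 were lower and none higher (against 14.5% lower and 18.4% higher over all genes), while among 11889 protein-coding genes 2372 were higher and 1726 lower. Scarna13, a guide RNA of Cajal bodies, had an interaction of -1.50 ± 0.23. Of 17 genes of the mitochondrial genome, 9 were lower and none higher, with mt-Co1 at -0.75 ± 0.11 and mt-Rnr2 at -1.55 ± 0.30. With GC content and length offsets, 2 mitochondrial genes were lower and 4 higher, so the direction of this list depended on them. In a list of 28 small nucleolar RNAs, 15 were lower and none higher, or 4 lower and 1 higher with the offsets. The circadian clock genes were divided, with 6 of 20 higher and 5 lower, against the same 18.4% and 14.5%. Per3 had an interaction of 2.29 ± 0.56, which was 0.05 and not called with 10 surrogate variables (FDR = 0.973), and Clock one of -0.75 ± 0.10. Nuclear respiratory chain genes were divided too, with 27 of 75 higher and 30 lower (25 and 25 with the offsets), against 18.4% higher and 14.5% lower over all genes.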

How the data were processed

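The authors sequenced total RNA of 154 livers from 24 strains with a stranded kit and single-end reads, aligned to mm10 with TopHat2 and, for what was left unmapped, to an A/J version of the genome, and tallied reads by gene in HTSeq. The table they deposited holds raw counts (whole numbers, no normalization) of 13289 genes, of which 11852 had at least 15 counts in 75% of the mice, the filter given in the study's methods. Of its columns per mouse, 0 were left unused. Reads from A/J alleles may be counted with another efficiency than those from B6, which bears on genes on chromosomes 8 and 14. Depth per mouse ran from 5801628 to 29202993 counts in the double strain.

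TMM factors came from edgeR (version 4.0.16, in R version 4.3.3) and 5 surrogate variables from svaseq (sva version 3.50.0). A model with 8 main effects and 15 interactions was fitted over all mice, so that all strains shared 1 estimate of the spread, and each contrast was given edgeR's quasi-likelihood F-test. Benjamini-Hochberg adjustment was applied apart to genes on chromosomes 8 and 14 and to the rest, with an FDR threshold of 0.05. Log2 CPM values had a prior count of 2. Positions and biotypes came from GENCODE vM21, which lacks 47 of the genes. The code was tested on simulated data with known fold changes. Labels do not say whether mice shared cages or litters, so p-values measure the spread between these mice.

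The genes named are, by the lowest p-value, 8 with a positive and 8 with a negative interaction (average log2 CPM of at least 4), 4 on each substituted chromosome for the interaction and 4 for the effect of their own chromosome, 6 changed in the double strain with single strain p-values above 0.1, 6 called in all 3 strains with an interaction p-value above 0.1, the 6 genes that the study examined in this cross and up to 4 of each list. Some genes that these rules name are not reported here. Others were named outside these rules after their values were seen, among them Cth, Tat, Lcn2, Gstm3 and Igfbp1, or because they were called within a list, such as Pklr, Pygl and Hmox1. The members and lists were chosen with earlier results of these data known. The alternatives were 0 or 10 surrogate variables, RLE size factors, DESeq2 (version 1.42.0), a filter of 15 counts in 75% of the mice, mice of the 4 strains alone, 1 adjustment over all genes, an FDR of 0.01 and leaving out each double strain mouse. Offsets for GC content and length, from a smooth fit in each mouse, were added after seeing the data, as was the comparison of GC slopes by exact permutation tests.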

Additional observations from a re-analysis of the deposited data

Results flagged for a closer look

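The effect of chromosome 8 differed between backgrounds, by the test of the interaction, at 4365 genes, and the same test applies to the effect of chromosome 14. The genes named above with a called interaction are among them.

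Tests for an outlying mouse covered genes chosen by the naming rules or after their values were seen, of which not all are described above. In 8 of 291 tests, where 1 test is 1 gene or the GC slope in 1 strain, 1 mouse stood apart from the others of its strain, and chance gives about 1 in 20. In the double strain, mouse 3 was apart for Cops2 (77.7 CPM, others 71.2 to 73.03) and for Sh3bgrl (127 CPM, others 108 to 112), and mouse 1 for Zfp729b (9.09 CPM, others 12.9 to 14.4). In (B6.A8 X B6)F1, mouse 1 was apart for Nbeal1 (159.5 CPM, others 179 to 196) and for Sort1 (19.2 CPM, others 13.8 to 16.04). In (B6 X B6.A14)F1, mouse 8 was apart for Lactb2 (288 CPM, others 228 to 255), mouse 7 for Spcs3 (91.3 CPM, others 69.7 to 78.4) and mouse 3 for Igfbp1 (635 CPM, others 103.3 to 235).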

How the results depend on the processing

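The number of interactions was between 2990 and 4899 in all alternatives but 1, which was the fit with 10 surrogate variables (1464). That fit also lowered the counts for chromosome 8 (1180) and chromosome 14 (788) on B6 and on the background of the other (739 and 1016). The double strain differed from B6 at 256 genes without surrogate variables, 212 in the mice of the 4 strains alone, 312 with GC content and length offsets and no surrogate variables, and 246 to 574 when a double strain mouse was left out. An FDR of 0.01 left 233 genes for it, 2662 and 1790 for chromosome 8 and 14 on B6, and 1038 and 1661 for them on the background of the other. The offsets gave 1559 genes for chromosome 14 on the chromosome 8 background and, without surrogate variables, 1198 for chromosome 8 on the chromosome 14 background. The cause was not tested, except that an FDR of 0.01 is stricter by construction. Of the shared calls on both backgrounds, 88.3% to 96.6% were of opposite sign for chromosome 8 and 95.2% to 99.1% for chromosome 14. Among genes chosen by the naming rules or after their values were seen, 19 interactions were no longer called with 10 surrogate variables and 1, Hp, was newly called. With the offsets, 4 were no longer called and 1, Ces2a, was newly called.

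Interactions that changed sign were all uncalled before and after. Without surrogate variables and in the 4 strains alone, they were Colec12 (0.0983 and 0.085), Sntb2 (0.0822 and 0.0663), Arhgef10 (-0.055 and -0.0679), Arhgef40 (0.0231 and 0.00879), Cyp3a11 (0.319 and 0.298) and Rprl3 (0.156 and 0.143). With 10 surrogate variables they were Rab6a (-0.0479), Slc25a32 (-0.214), Ppargc1a (-0.0453), Sntb2 (0.132) and Arhgef10 (-0.13), and with the filter Rab6a (-0.0178), Slc25a32 (-0.0539) and Sntb2 (0.0241). With the offsets they were Colec12 (0.247), Sntb2 (0.143), Arhgef10 (-0.267), Cyp3a11 (0.86), Rprl3 (0.664) and Igfbp1 (-0.0697), and with offsets but no surrogate variables Colec12 (0.24), Arhgef10 (-0.343), Cyp3a11 (0.685) and Rprl3 (0.633). Leaving out a double strain mouse gave -0.0747 to 0.0359 for Sntb2, -0.0165 to 0.133 for Rab6a and -0.335 to 0.121 for Rprl3. No paired analysis was possible because the labels give no replicate numbers.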
